A study of Mus musculus with 721 samples.

Results

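Transitional cells were the cells of the mouse embryonic pancreas that held transcripts of both Neurog3 and Fev before any hormone transcript was high. They were chosen by 7 genes: Neurog3 at 100 FPKM or more, Fev at 10 FPKM or more, and Ins1, Ins2, Gcg, Ghrl and Sst each under 100 FPKM. FPKM counts sequenced fragments relative to transcript length and sequencing depth, but the deposited values were not scaled to an equal total per cell. Over the transitional cells, fragments ran from 101675 to 1670000 and FPKM totals from 197336 to 2903486. Any effect of depth on the limits of the rule or on the FPKM levels below was not tested. Of 721 deposited cells, 658 passed a minimum of 100000 fragments and of 1500 genes detected at 1 FPKM. Of these, 495 came from E13.5, E14.5 and E15.5 (E for embryonic day), and 56 of the 495 were transitional.

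Neurog3 is a transcription factor that is switched on briefly in the epithelium of the embryonic pancreas and starts the endocrine programme there. Fev is an ETS-family transcription factor that follows Neurog3 in cells that do not yet make hormones, and it is also known from serotonin neurons. Pax4, a paired-box repressor that favours the beta and delta fates, and Neurod1, a basic helix-loop-helix factor, are both direct targets of Neurog3. A cell that holds Neurog3 and Fev together is therefore taken to be on its way out of the Neurog3 stage.

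Every embryo carried the Neurog3-eGFP reporter, and cells were sorted for eGFP into wells of 96-well plates, so no group without the reporter or the sort was used here. Whole-transcript cDNA was made by SMART-seq, a method without molecular identifiers, and sequenced as Nextera XT libraries. E13.5, E14.5 and E15.5 were each sequenced in 2 runs, which gives 6 cell sets of 1 day and 1 run. The labels name no animals, so a set was taken as 1 sample, and p-values measure only the spread between sets, which may be technical. The reporter protein outlasts the Neurog3 transcript, so a sort on eGFP also takes later cells.

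The 6 sets held 5, 17, 11, 10, 6 and 7 transitional cells, in the order E13.5 run 1, E13.5 run 2, E14.5 run 1, E14.5 run 2, E15.5 run 1 and E15.5 run 2. Values listed by set below follow this order. These were 7.35%, 21.8%, 11.7%, 11.8%, 6.82% and 8.54% of the kept cells of each set, so E13.5 run 2 stood above the other sets. Over all sets the share was 11.3% (exact Clopper-Pearson 95% interval 8.66% to 14.4%, here and below for counting error only). The 439 other cells fell into 141 that passed the Neurog3 limit alone (Neurog3-only), 90 that passed the Fev limit alone (Fev-only), 150 with a hormone at 100 FPKM or more, and 58 low in both genes. Neurog3-only and Fev-only cells also had all 5 hormones under 100 FPKM, so each neighbouring state differed from the transitional cells by 1 gene of the rule.

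**Figure D1:**
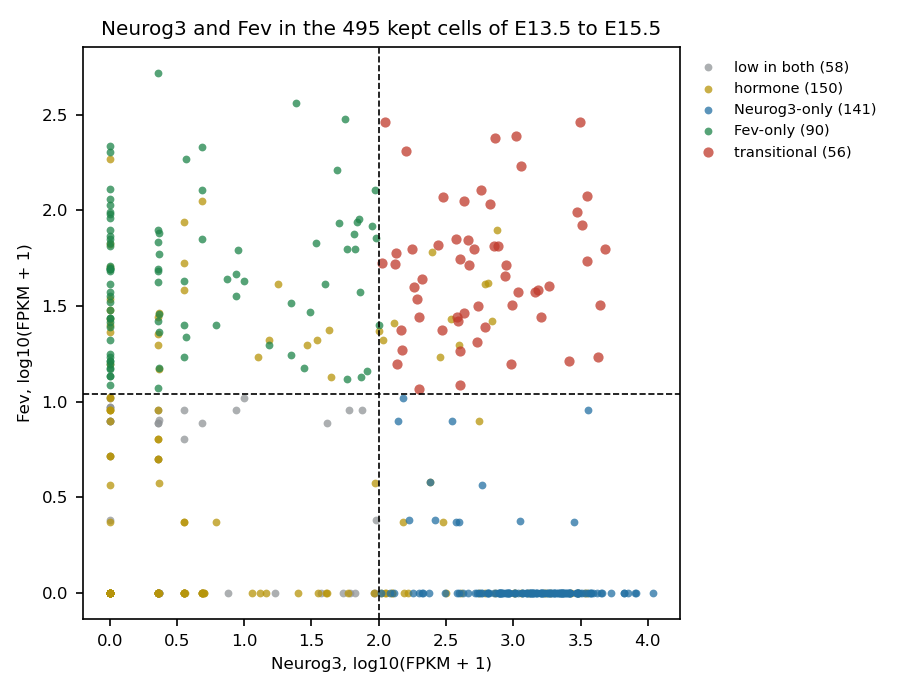
Neurog3 against Fev, both as log10(FPKM + 1), in the 495 kept cells of E13.5 to E15.5, with the limits of the rule as dashed lines and 1 point per cell. The 56 transitional cells fill the upper right, next to 141 Neurog3-only and 90 Fev-only cells, and 10 hormone cells lie in the same corner.

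The limits passed through a range of values and not through a gap. The 3 lowest Neurog3 values inside were 104.65, 109.82 and 131.85 FPKM, and the 3 highest outside, among Fev-positive cells, were 99.48, 94.32 and 93.03 FPKM. For Fev the nearest values were 10.67, 11.17 and 14.77 FPKM inside and 9.4, 8.06 and 6.97 FPKM outside. For the highest hormone of a cell they were 90.92, 90.18 and 64.03 FPKM inside and 140.55, 148.99 and 152.67 FPKM outside. Among Neurog3-only cells, 129 of 141 had Fev at 0, whereas 51 of 90 Fev-only cells still had some Neurog3 and 24 of them had 10 to 100 FPKM.

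The 2 runs differed in the share of FPKM in features without a gene name. In transitional cells its set medians were 11.84% to 18.91% in run 1 and 37.83% to 47.23% in run 2. In Neurog3-only cells they were 8.79% to 13.32% and 41.41% to 45.51%. By day, transitional medians of genes at 1 FPKM were 5349, 4883 and 4297 in run 1 and 7058, 6221.5 and 5089 in run 2. Any effect on the fixed limits of the rule or on the share in E13.5 run 2 was not tested. E13.5 run 1, the set with 5 transitional cells, also stood apart for some transcripts. Rpl13, a ribosomal protein gene that every cell uses, averaged 34.2 FPKM in its transitional cells and 737 to 2534 FPKM in those of the other sets. It was low there in Neurog3-only cells (149.2 FPKM) and Fev-only cells (93.7 FPKM) as well. Fragments and genes per cell did not differ past the test between states. Median fragments of transitional cells were higher in 1 of 6 sets against Neurog3-only cells and in 3 of 6 against Fev-only cells. Without E15.5 run 1 they were higher in 0 of 5 sets against Neurog3-only cells (exact two-sided sign-flip permutation test, p = 0.0625, the smallest possible). The set medians averaged 584570 fragments and 5483 genes at 1 FPKM in transitional cells, 618675 and 5351 in Neurog3-only cells, and 580852 and 5598 in Fev-only cells (exact two-sided sign-flip permutation tests over 6 sets, p = 0.406 to 1.0, smallest possible p = 0.03125). No doublet caller was run on these sorted wells. The 56 cells carried 44 distinct index pairs, no pair occurred more than once within a set, and 24 cells shared theirs with a transitional cell of another set. Cells with several markers of another type were rare: 0 of 56 cells held 3 or more leukocyte, endothelial, mesenchymal, erythroid or neural and glial markers at 10 FPKM, and 2 of 56 held 3 or more acinar markers. They were rare in the 439 other cells too, at 0 to 2 for each of the first types and 15 for acinar markers. At least 1 neural or glial marker was at 10 FPKM in 25 of 56 transitional and 166 of 439 other cells. For acinar markers these counts were 16 and 115. The summed acinar level of a set was 0.523 to 105.5 FPKM in transitional cells and 32.8 to 244.6 FPKM in the other cells.

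Pax4 and Neurod1, the markers that the rule did not use, were on in nearly all transitional cells. Neither sets these cells apart from both neighbouring states. As given below, Pax4 did not pass against Neurog3-only cells, and Neurod1 did not pass against Fev-only cells. Of the 4 markers, Neurog3 and Fev were fixed by the rule. Pax4 and Neurod1 were not, and both stood at 10 FPKM or more in 53 of the 56 cells, with 1 of them in the other 3 cells. Pax4 reached 10 FPKM in 54 of 56 cells (96.4%, interval 87.7% to 99.6%). Its set means were 1211.5, 699.4, 1171, 815.1, 1627 and 514.9 FPKM. Neurod1 reached 10 FPKM in 55 of 56 cells (98.2%, interval 90.4% to 100%), with set means of 932.6, 503.2, 645.4, 484.5, 384.4 and 459.4 FPKM. Sox9, a factor of the ductal epithelium from which Neurog3 cells arise, reached 10 FPKM in 5 of 56 cells. It did not pass against Neurog3-only, Fev-only or all other cells on either scale described below.

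The rule genes themselves are given as a description, since they chose the cells. Neurog3 averaged 435.3, 921.6, 840.3, 1753.5, 738.8 and 1379.7 FPKM by set in transitional cells. In Neurog3-only cells its set means were 1277 to 3153 FPKM, and in Fev-only cells 8.78 to 29.2 FPKM. The median transitional cell held 522.6 FPKM of Neurog3, below the 1448 FPKM of the median Neurog3-only cell. Fev averaged 67.4, 72.3, 58.3, 60.7, 78.7 and 76 FPKM in transitional cells and 39.4 to 114 FPKM in Fev-only cells, and these ranges overlap. The median cell held 47.4 FPKM of Fev in the transitional state and 44.3 FPKM in the Fev-only state. Ins2 reached 10 FPKM in 9 transitional cells, Gcg in 3, Ghrl in 2, and Ins1 and Sst in 0 of 56 (interval up to 6.38%).

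States were compared with limma over the 6 sets, with the set as a block, on 2 scales. The set-mean scale is log2 of the mean FPKM over the cells of a state in a set, plus 1. It runs low in a state with few cells when a gene is on in few of them, and the median of all genes in the comparison with Neurog3-only cells was -0.13 on it. The per-cell scale averages log2(FPKM + 1) over cells, and that median was 0.03 on it. Differences below are on the log2 scale, with the standard error (SE) and the p adjusted by Benjamini-Hochberg over all genes tested.

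Against Neurog3-only cells, the transitional cells were higher in 9 of 30 genes of the granin and processing list described below. They were also higher in 4 of 31 endocrine transcription factors. They were lower in 5 of 28 genes that accompany Neurog3 and in 1 of 36 genes of DNA replication and mitosis. These counts are on the set-mean scale explained above. On the set-mean scale limma called 73 of 14583 genes higher (0.501%) and 54 lower (0.37%). On the per-cell scale it called 265 higher (1.82%) and 202 lower (1.39%), and 121 genes were called on both scales with 72 higher and 49 lower. Leaving out any 1 set left 39 to 80 genes on the set-mean scale, all 6 of these counts more than 1.5 times below 127. Without E13.5 run 1 the counts were 68 on the set-mean scale and 438 on the per-cell scale, where leaving out E13.5 run 2, E14.5 run 1 or E15.5 run 2 left 272, 263 or 268. With the Fev limit at 50 FPKM, which moves weaker Fev cells into the Neurog3-only group and leaves 5 sets, 4 genes were called, and Usp18 and Tmem27, described below, stood at -0.081 and -0.591. With the Neurog3 limit at 200 FPKM 14 genes were called, and with hormones under 10 FPKM 42.

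Granins are acidic proteins that drive the packing of hormones into dense-core granules, and prohormone convertases cut the hormone precursors inside them. Chgb, chromogranin B, averaged 8387, 12126, 7727, 5712, 7173 and 5539 FPKM by set in transitional cells. In Neurog3-only cells its set means were 2048.6, 369.6, 1597, 178.6, 641.7 and 51.5 FPKM, so the groups did not overlap. The difference was 4.09 (SE 0.54, limma adjusted p = 0.0118) on the set-mean scale and 6.91 (SE 0.32, limma adjusted p = 1.58e-09) per cell. At the level of single cells, 54 of 56 transitional cells held Chgb at 10 FPKM or more (96.4%), against 69 of 141 Neurog3-only cells (48.9%, interval 40.4% to 57.5%).

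Chga, chromogranin A, averaged 678.1, 1629.5, 828.6, 1967.5, 2294.8 and 1950.1 FPKM in transitional cells and 8.53 to 469.9 FPKM in Neurog3-only cells. It was higher by 4.63 (SE 0.69, limma adjusted p = 0.0186), and the groups did not overlap. Scg3, a granin that anchors granule cargo to the membrane, was higher by 3.26 and Cpe, the carboxypeptidase that trims cut hormones, by 2.69, again without overlap of the sets. Pcsk2, prohormone convertase 2, was higher by 3.74, but E13.5 run 2 held only 9.4 FPKM and the other sets 76.5 to 123.2 FPKM. Of 30 granin and processing genes tested, 9 were higher and 0 lower on the set-mean scale, with Scgn, Cryba2, Bex2 and Stx1a as the other members. The list was chosen with earlier results of these data known. It also holds members that are neither granins nor processing enzymes, such as Cryba2, a crystallin-family gene. The median of the 30 was 1.63 against -0.13 for all genes tested. Per cell, 15 were higher, now also Scg5, Pcsk1, Pam, Ptprn2, Snap25 and Cadps, and the median was 1.48 against 0.03.

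The promoters of 4 of these higher genes are shown as the sequence beside the values above, since these genes were higher together. Each is the 250 bases before the gene's start in RefSeq on the build GRCm38.p6, read 5′ to 3′ on the gene's strand, at chr2:132781392-132781641 (+) for Chgb, chr12:102554691-102554940 (+) for Chga, chr1:74893144-74893393 (-) for Cryba2 and chr2:143545883-143546132 (+) for Pcsk2. Capitals mark the letters CAGCTG, an E-box, the kind of site that basic helix-loop-helix factors such as Neurog3 and Neurod1 bind.
Chgb: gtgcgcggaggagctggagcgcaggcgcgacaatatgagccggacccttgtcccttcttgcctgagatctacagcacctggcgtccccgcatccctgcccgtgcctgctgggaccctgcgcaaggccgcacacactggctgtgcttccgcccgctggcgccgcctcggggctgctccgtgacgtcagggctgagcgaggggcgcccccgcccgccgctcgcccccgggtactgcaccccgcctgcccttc
Chga: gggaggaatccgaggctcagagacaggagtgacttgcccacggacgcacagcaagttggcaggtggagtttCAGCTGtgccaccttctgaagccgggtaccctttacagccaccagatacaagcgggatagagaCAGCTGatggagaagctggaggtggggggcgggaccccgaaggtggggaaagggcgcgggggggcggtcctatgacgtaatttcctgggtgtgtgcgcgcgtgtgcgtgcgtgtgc
Cryba2: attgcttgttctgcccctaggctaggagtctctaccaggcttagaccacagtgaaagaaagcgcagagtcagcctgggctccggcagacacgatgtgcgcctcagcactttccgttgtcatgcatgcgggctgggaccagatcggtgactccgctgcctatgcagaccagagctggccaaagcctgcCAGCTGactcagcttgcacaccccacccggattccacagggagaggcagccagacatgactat
Pcsk2: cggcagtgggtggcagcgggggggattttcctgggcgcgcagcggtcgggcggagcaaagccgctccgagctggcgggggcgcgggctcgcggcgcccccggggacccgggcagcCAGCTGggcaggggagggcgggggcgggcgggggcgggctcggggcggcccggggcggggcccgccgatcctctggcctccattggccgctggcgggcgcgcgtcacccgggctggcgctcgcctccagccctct

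The Chga window held CAGCTG at 179 and 116 bases before the start, the Cryba2 window at 63 and the Pcsk2 window at 135, and the Chgb window held 0. Both strands were searched for 3 motifs: CAGCTG, which reads the same on both strands, CAGATG with its other strand CATCTG, and TGACGTCA, the cyclic AMP response element, which also reads the same on both strands and overlaps none of the others. CAGCTG was in 9 of the 24 granin and processing genes with a window in the table (37.5%), and in 13% of all 32851 windows. CAGATG was in 1 of the 24 and in 14.4% of all windows. TGACGTCA was in 3 of the 24, which were Chgb, Pcsk1 and Scg2, and in 1.55% of all windows. A gene of the list counted when any of its windows held the letters, whereas the share of all windows counts each window by itself. The shares of genes and of windows are therefore unlike measures. These are counts of letters, and no binding was measured.

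Endocrine transcription factors formed the next group. Pax6, which glucagon and insulin cells need, averaged 532.4, 336.0, 664.4, 221.0, 290.0 and 192.8 FPKM in transitional cells and 3.37 to 105.6 FPKM in Neurog3-only cells. The difference was 3.15 (SE 0.43, limma adjusted p = 0.0134) on the set-mean scale and 5.40 (SE 0.40, limma adjusted p = 1.16e-06) per cell. Pax6 stood at 10 FPKM or more in 52 of 56 transitional cells (92.9%) and in 40 of 141 Neurog3-only cells (28.4%). Neurod1 was higher by 1.56 (SE 0.29, limma adjusted p = 0.0411) and Runx1t1, a corepressor of the ETO family, by 2.43 (SE 0.29, limma adjusted p = 0.0108). Both were higher in 6 of 6 sets, although the lowest transitional sets overlapped the highest Neurog3-only sets. Pou3f4, a POU factor of alpha cells, was higher by 2.33.

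These 4 were the calls among 31 endocrine transcription factors tested on the set-mean scale, with 0 lower. The median of the 31 was 0.39, and 11 of the differences were negative. Per cell, 8 were higher, among them St18, Pdx1 and Meis2. Pax4 did not pass: its difference was -0.17 on the set-mean scale and 0.31 per cell (limma adjusted p = 0.707 and 0.571), and both states held high levels of it. Insm1, a zinc-finger factor that acts beside Neurog3, was at -1.15 (limma adjusted p = 0.243) and lower in 6 of 6 sets, and Nkx2-2 was at -0.47 (limma adjusted p = 0.613).

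**Figure D2:**
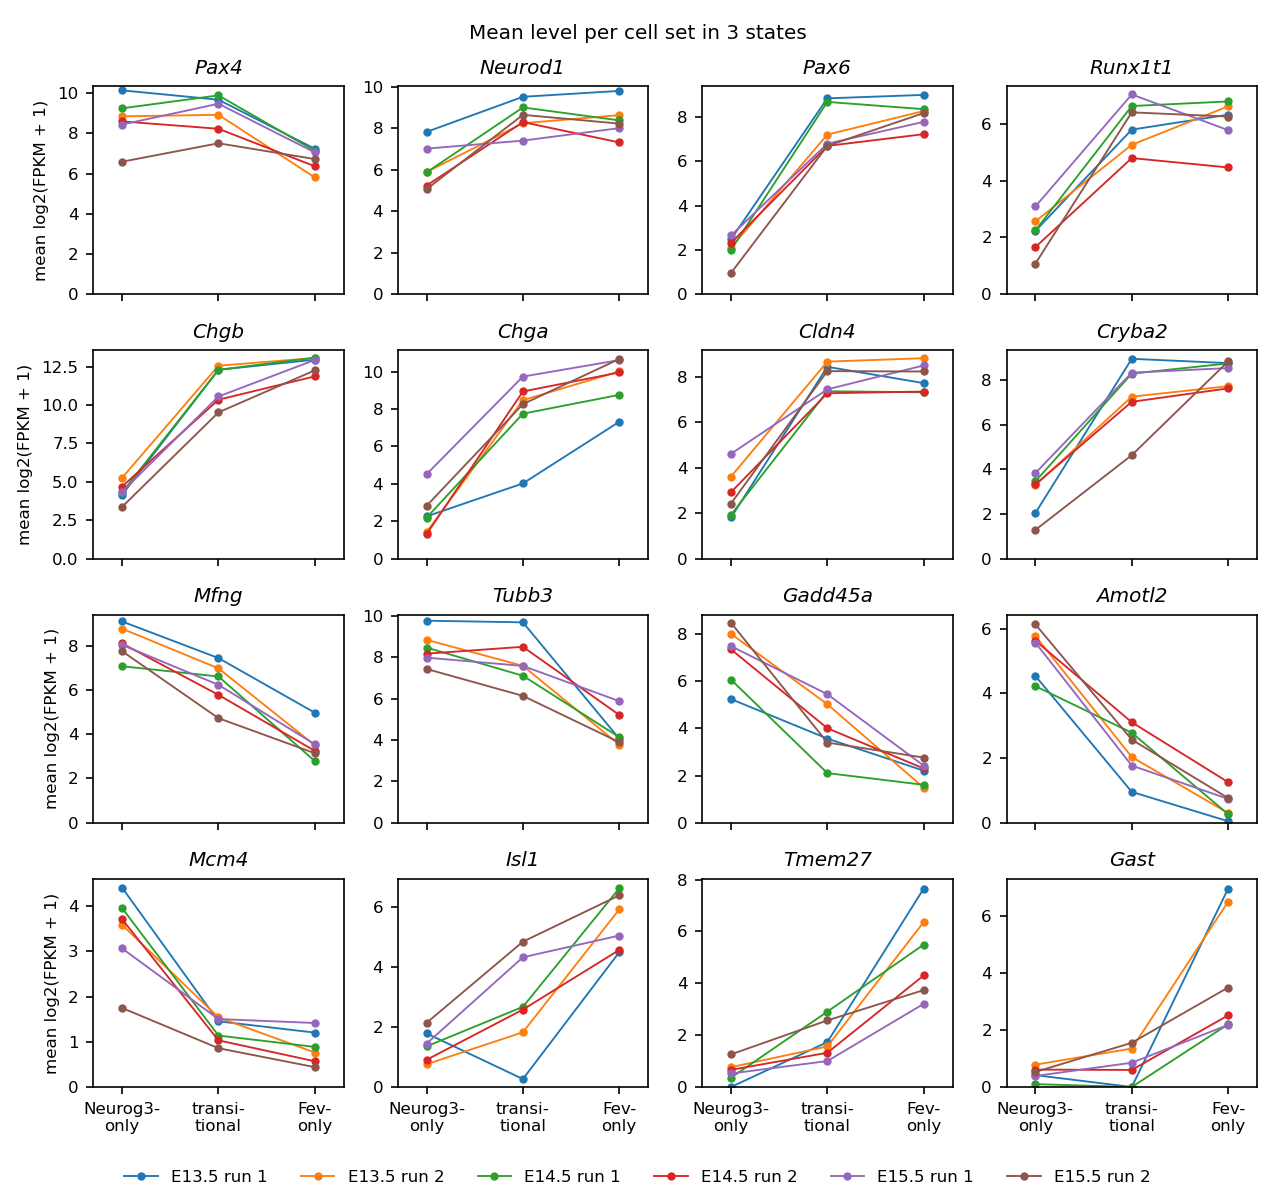
Mean log2(FPKM + 1) over the cells of each state in each of the 6 sets, with 1 panel per gene, 1 line per set and the states ordered Neurog3-only, transitional, Fev-only. Chgb, Pax6 and Cldn4 stand high in transitional and Fev-only cells, Mfng and Tubb3 stand high in Neurog3-only and transitional cells, and Tmem27, Isl1 and Gast are highest in Fev-only cells.

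Other genes named by size belonged to several functions. Usp18, which removes the ubiquitin-like protein ISG15, averaged 305.2, 96.4, 314.4, 79.1, 71.1 and 83.8 FPKM in transitional cells and 0.0847 to 12.9 FPKM in Neurog3-only cells. It was higher by 5.12 (SE 0.40, limma adjusted p = 0.00127), but the median transitional cell held 1.11 FPKM. Cldn4, a claudin of tight junctions, averaged 399.0, 542.0, 401.9, 309.8, 735.3 and 360.0 FPKM against 34.3 to 138.2 FPKM, a difference of 2.71 (SE 0.23, limma adjusted p = 0.00175). It was on at 10 FPKM in 53 of 56 transitional cells, against 52 of 141 Neurog3-only cells. Also higher were Gpr85, an orphan receptor, by 3.93, Entpd3, an ectonucleotidase, by 3.87, Gprc5a, an orphan receptor induced by retinoic acid, by 3.78, Etv5, an ETS factor, by 3.51, Tmem27, known as collectrin, by 3.44, and Nol4 by 3.44. Per cell these differences were smaller, at 3.09 for Usp18, 1.34 for Gpr85, 2.39 for Entpd3, 1.5 for Gprc5a, 2.08 for Etv5, 1.25 for Tmem27 and 2.32 for Nol4. On the per-cell scale Fam183b (4.65), Hmgn3 (4.33), Hepacam2 (4.17) and Vdr, the vitamin D receptor (4.06), were among the largest.

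On the lower side, there were genes of the Neurog3 stage and of the epithelium. Of 28 genes that accompany Neurog3, 5 were lower and 0 higher on the set-mean scale, and 12 were lower per cell. This list was drawn up with these cells known, so its direction is not independent evidence. The median was -1.44 against -0.13 for all genes. Gadd45a, a growth-arrest and stress gene, averaged 24.4, 84.8, 13.1, 40.8, 206.7 and 42 FPKM in transitional cells and 98.2 to 581.4 FPKM in Neurog3-only cells, and was lower by 2.53 (SE 0.34, limma adjusted p = 0.0133). Bcl2, which blocks cell death, averaged 0.0 to 2.06 FPKM against 6.16 to 10.7 FPKM, without overlap. Tmem171, Cdc14b, a phosphatase, and Smarcd2, a subunit of the BAF chromatin remodeller, were the other calls. Per cell the calls took in Hes6, Mfng, Amotl2, Sox4, Igfbpl1, Cer1 and Rgs16 as well.

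Wfdc2, a secreted protein of epithelia, was at 0.0, 31.4, 33, 22.9, 0.0 and 0.0 FPKM by set in transitional cells and at 142.0 to 287.2 FPKM in Neurog3-only cells. It was on at 10 FPKM in 8 of 56 transitional cells (14.3%, interval 6.38% to 26.2%) and in 89 of 141 Neurog3-only cells (63.1%, interval 54.6% to 71.1%). The other largest falls on the set-mean scale were Spink4, a protease inhibitor, at -5.18, Habp2, a serine protease, at -4.27, Rhbg, an ammonium transporter, at -4.16, Spp1, osteopontin, at -4.10, Tubb6, a tubulin, at -4.0, Suclg2 at -3.98, Sult5a1 at -3.93 and Calml4 at -3.89. Per cell these falls were smaller, at -1.78 for Spink4, -3.76 for Habp2, -2.12 for Rhbg, -2.62 for Spp1, -1.10 for Tubb6, -1.5 for Suclg2, -0.88 for Sult5a1 and -0.83 for Calml4.

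Among DNA replication genes the calls were of the Mcm helicase. Mcm4, a subunit of the replicative helicase, averaged 7.19, 9.97, 15.1, 18.2, 11.1 and 2.25 FPKM in transitional cells and 14.6 to 110.3 FPKM in Neurog3-only cells. It was lower by 2.3 (SE 0.38, limma adjusted p = 0.0287) and was the 1 call among 36 replication and mitosis genes on the set-mean scale, where all 36 differences were negative. Per cell the calls were Mcm2, Mcm3, Mcm4, Mcm5, Mcm6 and Mcm7, and 5 of 36 differences were positive. Top2a, which acts in mitosis, was at 10 FPKM in 4 of 56 transitional and 19 of 141 Neurog3-only cells. Cdk4, the kinase of G1 phase, was lower by 0.90 (SE 0.13, limma adjusted p = 0.018), and Cdkn1b, an inhibitor of cyclin-dependent kinases, was higher per cell by 1.51 (SE 0.33, limma adjusted p = 0.0181).

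The epithelial and cytoskeletal lists held calls in both directions. Of 25 keratin, claudin and adhesion genes, Cldn4 was higher and Spp1 lower on the set-mean scale. Per cell, Krt8, Krt18, Cldn4 and Ocln were higher and Krt19, Cldn6, Spp1, Cd24a, Clu and Prom1 lower. Of 30 genes of the neuronal cytoskeleton and guidance, Tuba1a was higher by 1.23 and Stmn1, which destabilises microtubules, lower by 1.20. Notch pathway genes gave 0 calls of 22 on the set-mean scale with limma, and Hes6 and Mfng were lower per cell.

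Fev is known in neurons for the genes of serotonin synthesis and transport, and their levels in transitional cells were uneven. Of 11 tested, limma called 0 on the set-mean scale and Qdpr, which recycles the biopterin cofactor, per cell (2.19, SE 0.35, limma adjusted p = 0.00138). Tph1, the rate-limiting enzyme, reached 10 FPKM in 1 of 56 transitional cells, and Tph2 in 0 of 56 (interval up to 6.38%). Ddc, the decarboxylase of the pathway, reached it in 25 of 56 (44.6%) and Qdpr in 54 of 56 (96.4%). Slc18a1, a vesicular monoamine transporter, reached it in 19 of 56 (33.9%, interval 21.8% to 47.8%) and in 10 of 141 Neurog3-only cells (7.09%, interval 3.45% to 12.7%). Its set difference was 1.47 (limma adjusted p = 0.541), and in E15.5 run 1 all 6 transitional cells were under 1 FPKM.

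Against Fev-only cells, the transitional cells were higher in 6 of 27 genes that accompany Neurog3, on the per-cell scale. On that scale they were lower in 4 of 31 granin and processing genes and 3 of 10 alpha-cell genes. On the set-mean scale limma called 0 of 14465 genes higher (0.0%) and 0 lower (0.0%), with a lowest adjusted p of 0.104, while 1012 genes had an unadjusted p under 0.05. On the per-cell scale, limma called 20 genes higher (0.138%) and 27 lower (0.187%), with 1275 genes at an unadjusted p under 0.05. The calls given for this comparison are therefore on the per-cell scale alone. They were 16 in number without E13.5 run 2, 25 without E14.5 run 1, 26 without E15.5 run 1 and 38 without E13.5 run 1.

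Of 27 genes that accompany Neurog3, 6 were higher in transitional than in Fev-only cells and 0 lower. All 27 differences were positive per cell, with a median of 1.01 against 0.00 for all genes. The rule sets these states apart by Neurog3, and the list was drawn up with these cells known, so its direction is not independent evidence. Tubb3, a tubulin of neurons, averaged 1193.8, 338.4, 371.2, 674.9, 527.3 and 133.0 FPKM in transitional cells and 105.9 to 171.1 FPKM in Fev-only cells. It was higher by 3.28 (SE 0.44, limma adjusted p = 0.00138), in 6 of 6 sets, and only E15.5 run 2 lay within the range of the Fev-only sets. Mfng, a fringe glycosyltransferase that modifies Notch receptors, averaged 422.3, 192.3, 307.3, 195.4, 566.6 and 170.7 FPKM against 59.7 to 168.7 FPKM. Its difference was 2.76 (SE 0.42, limma adjusted p = 0.0021), without overlap between the groups.

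Cbfa2t3, an ETO-family corepressor, averaged 15.9 to 53.7 FPKM against 2.28 to 9.86 FPKM, again without overlap, and was higher by 2.27 (SE 0.40, limma adjusted p = 0.0103). Amotl2, which binds the Hippo effector YAP, Btg2, an antiproliferative gene, and Smarcd2 were the other calls of the list. Outside it, Gpx2, a glutathione peroxidase, was higher by 2.75, Tmsb4x, which binds actin monomers, by 2.63, Gdpd1 by 2.57, Gadd45g by 2.46 and Cbfa2t2, another ETO-family corepressor, by 2.15. Pax4 was higher by 2.23 (SE 0.32, limma adjusted p = 0.00138), with Fev-only set means of 932.9, 332.0, 549.2, 300.4, 373.9 and 495.8 FPKM, each below the transitional cells of the same set.

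Lower than in Fev-only cells were Chga (-1.69), Chgb (-1.43), Pam, the amidating enzyme of peptide hormones (-1.96), and Scgn, secretagogin (-2.51), which made 4 of 31 granin and processing genes, with a median of -0.66. None of the 10 alpha-cell genes tested had a positive difference. Tmem27 averaged 80.7, 61.4, 120.0, 16.5, 10.5 and 60 FPKM in transitional and 152.5 to 800.5 FPKM in Fev-only cells and was lower by 3.28 (SE 0.53, limma adjusted p = 0.00314). Ttr, transthyretin (-2.75), and Slc38a5, an amino acid transporter (-2.12), were the other calls among them. Isl1, a LIM factor that endocrine cells need after Neurog3, was at 10 FPKM in 16 of 56 transitional cells (28.6%) and 60 of 90 Fev-only cells (66.7%) and was lower by 2.76 (SE 0.50, limma adjusted p = 0.0112). Nt5c3 (-2.87), Entpd3 (-2.72), Sepp1 (-2.56), Lgals3bp (-2.53) and Akr1c19 (-2.34) completed the largest falls.

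Gast, which encodes the peptide hormone gastrin, was among the lower genes. It averaged 0.0, 16, 0.0, 1.39, 5.59 and 14.9 FPKM in transitional cells, and 15281.7, 3063.8, 94.1, 515.8, 154.5 and 421.7 FPKM in Fev-only cells. It reached 10 FPKM in 5 of 56 transitional cells (8.93%, interval 2.96% to 19.6%) and in 36 of 90 Fev-only cells (40%, interval 29.8% to 50.9%). The per-cell difference was -3.25 (SE 0.58, limma adjusted p = 0.0103). Neurod1 (0.13, limma adjusted p = 0.922), Cldn4 (-0.08, limma adjusted p = 0.95) and Pax6 (-0.65, limma adjusted p = 0.559) did not pass, and their SEs of 0.28, 0.29 and 0.31 leave room for differences of either sign.

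**Figure D3:**
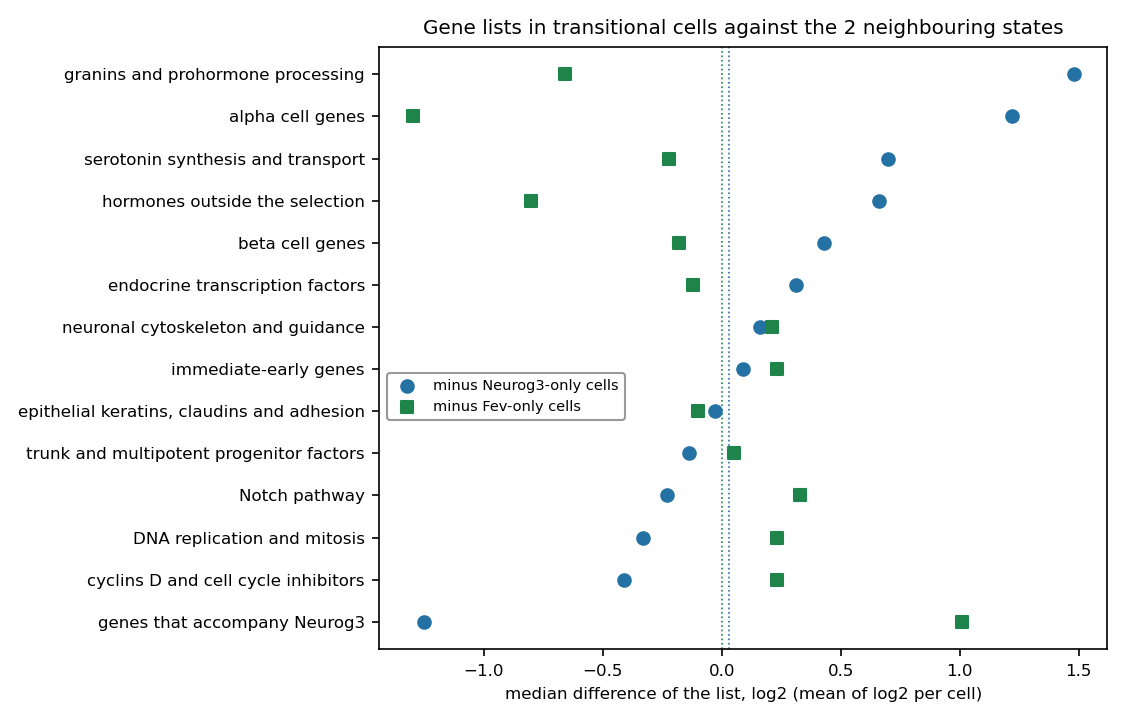
Median log2 difference of each gene list on the per-cell scale, transitional minus Neurog3-only cells (circles) and transitional minus Fev-only cells (squares), with the median of all genes as dotted lines. Granin and processing genes lie at 1.48 and -0.66, and genes that accompany Neurog3 at -1.25 and 1.01.

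How far the transitional cells had moved was set out for genes picked on the 2 neighbouring states alone. These differed by at least 1 on the per-cell log2 scale between Neurog3-only and Fev-only cells, with the same sign in all 6 sets. Of 646 genes higher in Fev-only cells, the mean of the transitional cells lay between the states for 559, before the Neurog3-only level for 20 and beyond the Fev-only level for 67. The median position was 61.3% of the way (quartiles 40.7% and 82.2%). Of 529 genes lower in Fev-only cells, 479 lay between, and the median position was 63.4% (quartiles 44.7% and 80.4%). Genes picked for a gap between the neighbours tend to have other means inside it, so the share between them is a description without a test.

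Single genes differed widely in this position. Neurod1 (105.6%), Runx1t1 (98.7%), Cldn4 (98.4%), Vdr (92.8%) and Pax6 (89.3%) were at or near the Fev-only level. Chgb (82.8%), Cryba2 (82.6%), Chga (76.3%) and Scg3 (75.5%) followed, and Pcsk2 (52.2%) and Pam (48.6%), which process hormone precursors, were midway. Isl1 (33%), Tmem27 (27.7%) and Gast (7.2%) were nearer to the Neurog3-only level, and Ttr (-26.9%) was among the 20 genes before it. Among genes that are lower in Fev-only cells, Wfdc2 (105.5%), Bcl2 (103.5%), Spp1 (89.1%) and Mcm4 (85.2%) had reached or neared the low level, Gadd45a (63.9%) and Hes6 (57.3%) were midway, and Mfng (40%), Tmsb4x (38.8%), Cbfa2t3 (34.4%), Btg2 (17.4%) and Tubb3 (17.2%) were nearer to the Neurog3-only level.

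**Figure D4:**
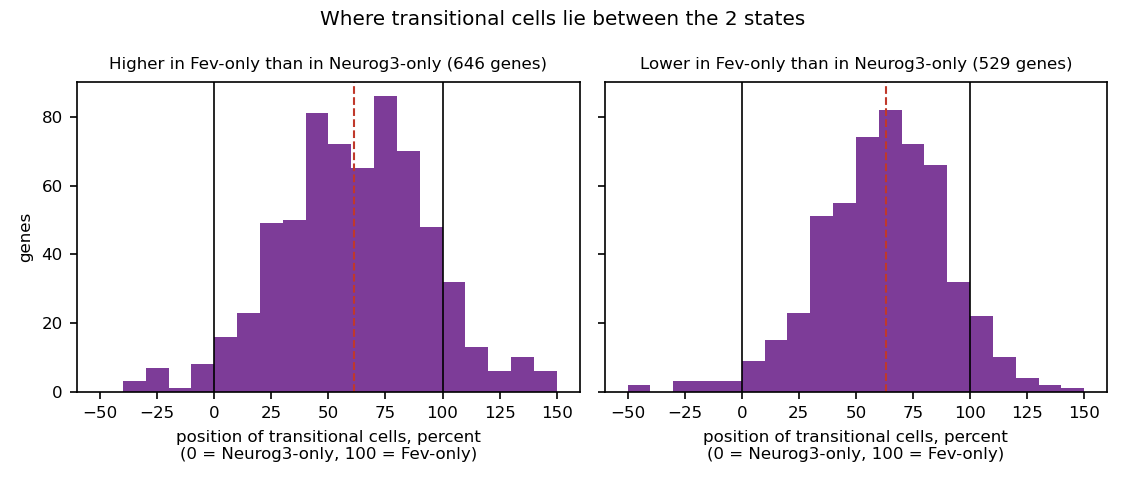
Number of genes by the position of the transitional cells between Neurog3-only (0 percent) and Fev-only cells (100 percent), for 646 genes higher and 529 genes lower in Fev-only cells, with genes past the ends drawn in the end bars. The dashed medians stand at 61.3 and 63.4 percent.

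Against all 439 other kept cells of the same day and run, few genes passed, and these cells hold every earlier and later state of the sort. On the set-mean scale limma called 1 of 15348 genes higher (0.00652%) and 32 lower (0.208%), and per cell 4 higher (0.0261%) and 6 lower (0.0391%). Cldn4 was the higher gene on both scales, with set means of 399.0 to 735.3 FPKM against 138.5 to 256.1 FPKM in the other cells, and a difference of 1.28 (SE 0.16, limma adjusted p = 0.0297). Per cell, Pax4 (2.86), Lhx1, a LIM factor (2.17), and Runx1t1 (2.10) were higher too. The 4 genes called on both scales were Cldn4 and the lower genes Gast, Tmem27 and Nefm.

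The lower genes on the set-mean scale took in hormone and islet genes that the rule did not use. The other cells include the 150 hormone cells that the rule kept out of the transitional state. Falls of hormone and islet genes are therefore not independent of the selection. The median of all genes was -0.378 on this scale. At an unadjusted limma p under 0.05, 1922 genes were lower and 141 higher. Gast was at -8.51, Scg2, a granin, at -5.29, Gip, an incretin hormone, at -4.97, Pla2g1b, a phospholipase of acinar cells, at -4.81, and G6pc2, an islet glucose-6-phosphatase, at -4.79. Spink4 (-4.27), Nefm, a neurofilament (-4.07), Th, tyrosine hydroxylase (-4.06), Arg1, arginase (-4.03), and Asb4 (-3.99) followed. Per cell Isl1 (-2.54), Ttr (-2.37) and Rbp4, the retinol-binding protein (-2.28), were lower. These counts were less steady than those against Neurog3-only cells: leaving out 1 set left 4 to 16 calls on the set-mean scale. Per cell it left 0 to 4, with 0 without E13.5 run 2, without E14.5 run 1, without E14.5 run 2 or without E15.5 run 2.

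Along embryonic day, limma called 0 of 13591 genes (0.0%) within transitional cells on the set-mean scale, where 847 genes had an unadjusted p under 0.05, and 39 (0.287%) per cell. Slopes are in log2 units per day, with the run as a term. Slc38a5 averaged 16602, 3479, 2714, 2495, 927.8 and 1389 FPKM by set and fell by 3.61 per day (SE 0.31, limma adjusted p = 1.23e-12) on the per-cell scale. Serpinf2, a plasma protease inhibitor, averaged 508.5, 80, 81.8, 5.75, 0.0 and 0.0 FPKM and fell by 3.06. Sct, secretin, fell by 3.00, Clps, the pancreatic colipase, by 2.90, Mfap2 by 2.87 and Chgb by 1.19. Rbp4 (2.14), Cyc1 (2.05), Krt18 (1.99) and Rpl13 (1.82) rose, the last from 34.2 FPKM in the set that stood apart. Without E13.5 run 1 the per-cell count was 11, without E15.5 run 1 or run 2 it was 18, without E14.5 run 1 it was 131 and without E13.5 run 2 it was 195.

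Sex differed with the day in these cells. Xist, the transcript of the inactive X chromosome, averaged 42, 24.3, 29.8 and 29.3 FPKM in the transitional cells of E13.5 and E14.5 and 0.57 and 0.0 FPKM in those of E15.5. Ddx3y, on the Y chromosome, was at 0.0 FPKM in the first 4 sets and at 40.8 and 44.3 FPKM in both E15.5 sets. Eif2s3y, also Y-linked, had the largest rise (2.19). The effects of day and of sex on the slopes cannot be told apart. The 4 markers had no slope past the test on either scale where they could be tested (Pax4 -0.40, limma adjusted p = 0.56, and Neurod1 -0.43, limma adjusted p = 0.593, per cell).

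Within the 56 transitional cells, genes were ranked by Spearman's rho with Neurog3 and with Fev over 5722 genes, after values were centred within sets. Cells share a library run and differ in depth, so rho is given as a description without a p. Most like Neurog3 were Prom1, a membrane protein of progenitors (0.651), Ttyh2 (0.622), Pla2g2f (0.606), Tmsb4x (0.606) and Smarcd2 (0.573). Most opposed to it were Ggcx (-0.562), Rap1b (-0.56) and Chgb (-0.547). In the 5 sets with at least 6 cells rho of Neurog3 was -0.25 to -0.83 with Chgb and 0.55 to 0.95 with Prom1.

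Among the genes most like Fev were Miat (0.604), Ldb1, a partner of LIM factors (0.57), Cul7 (0.532) and Gas5 (0.531). Gas5 also had a rho of 0.571 with the number of fragments, against 0.389 for Fev, and the part of depth in these values was not tested. Neurog3 and Fev had a rho of 0.143 with each other.

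**Figure D5:**
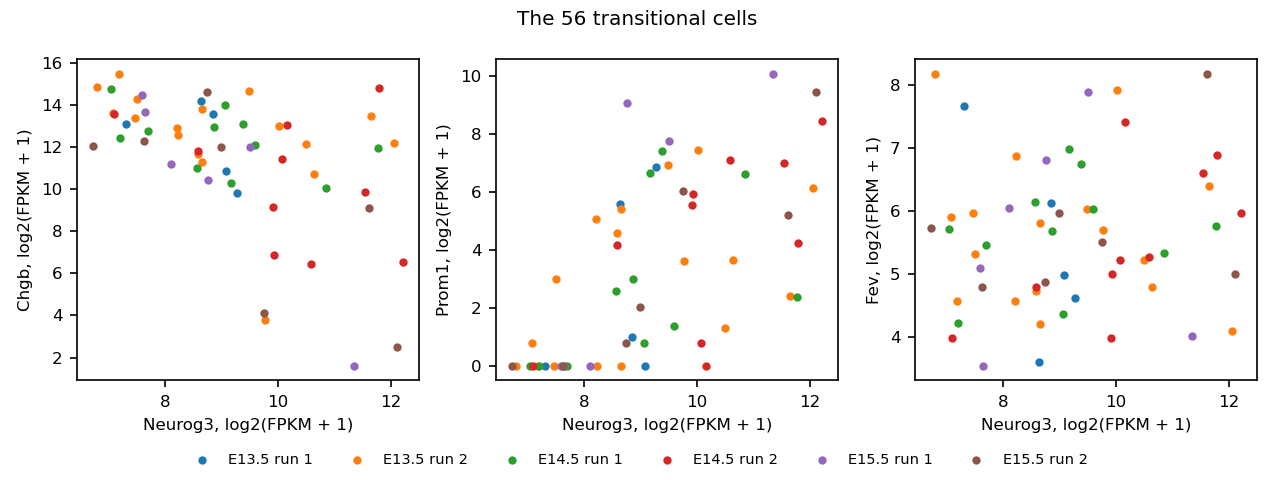
Chgb, Prom1 and Fev against Neurog3 in the 56 transitional cells, all as log2(FPKM + 1), with 1 point per cell coloured by set. After centring within sets, rho was -0.547 for Chgb, 0.651 for Prom1 and 0.143 for Fev.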

How the data were processed

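The authors deposited FPKM values per gene and cell, and a table of gene names (another kind of value, not a measurement). Per the submitters' processing notes, TopHat2 2.0.13, Cufflinks 2.2.0 and the build mm10 were used, with no role or order given, and none of the sources used here names the annotation. FPKM values are already divided by transcript length, and counts were not analysed here. Within a run, FPKM totals still followed fragments. In run 1 the transitional medians by day were 790203, 571746 and 803561 fragments, with totals of 1032840, 751222 and 1031282. In run 2 they were 540599, 475111.5 and 326200 fragments, with totals of 929648, 871591 and 636025. Fragments per cell are the labels' total mass, read as mapped fragments. Without strand marking, overlapping genes cannot be told apart. All 721 columns were matched to cells, and 0 columns were left unmapped.

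Cells were grouped by the limits given above. Genes were tested when their state means in a fit averaged 1 FPKM or more, and a set entered with at least 3 cells of each state. Differences were fitted with limma 3.58.1 in R 4.3.3 (two-sided moderated test with an intensity trend, p-values adjusted by Benjamini-Hochberg, called under 0.05), with the set as a block and a pseudocount of 1. Sets share their day and run, so the block pairs states of the same set. The per-cell scale was fixed as another setting. Its use beside the set-mean scale for naming genes was added after seeing the data. The 7 genes of the rule were left out of the calls.

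Genes were named as the 10 highest and 10 lowest called in the same direction in every set, without predicted genes, small RNAs and the reporter, up to 4 members of each of 20 lists or else the 2 largest, the 5 highest and lowest slopes, and 13 genes in every case, which were the markers, the hormones, Sox9, Insm1, Nkx2-2 and Chgb. Other names, among them further list members called, Rpl13, Xist, Top2a and the serotonin genes, were chosen after their values were seen. The members and lists were chosen with earlier results of these data known. The limma fits were tested on simulated data. Alternatives were other limits, filters, pseudocounts and scalings, no block, weights, and leaving out each set. Results for a few of the genes that this rule names are not reported here.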

Additional observations from a re-analysis of the deposited data

Results flagged for a closer look

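E13.5 run 2 held the highest share of transitional cells. Its 21.8% stood farther from the next set, E14.5 run 2 at 11.8%, than the range of the 6 sets allows under Dixon's test of the gap over the range. Of 11 series of 6 sets looked at, this was the 1 past the limit, and chance puts about 1 in 20 groups past it.

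In 4 cases both sets of 1 day lay on one side of 0 and both sets of another day on the other, on the per-cell log2 scale. These differences between days were not tested. Insm1 against the other cells was at -0.83 at E13.5 and 0.87 at E14.5. For Nkx2-2 against the other cells, E13.5 gave -0.31, whereas E14.5 gave 1.61 and E15.5 gave 0.75. Neurod1 against Fev-only cells was at -0.34 at E13.5 and 0.80 at E14.5.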

How the results depend on the processing

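Counts of calls and values of single genes both moved with the processing. Of 1238 values of named genes under other settings, 898 kept their direction and side of the threshold, 321 no longer passed, 5 newly passed and 14 turned direction. The 1238 include genes that did not pass in the main setting, so the 321 come from a smaller number of values. Against other cells (33 calls) the counts were 103 with Neurog3 at 200 FPKM, 9 with Neurog3 at 50 FPKM, 20 with a mean of at least 5 FPKM, 10 on the per-cell scale, 0 with no filter and 1 with a pseudocount of 10. Against Neurog3-only cells (127 calls) they were 4 with Fev at 50 FPKM, 14 with Neurog3 at 200 FPKM, 42 with hormones under 10 FPKM, 467 per cell and 21 with no filter. Against Fev-only cells (0 calls) they were 3 with Neurog3 at 200 FPKM, 2 with a mean of at least 5 FPKM, 47 per cell and 15 after rescaling to named genes. Slopes (0 calls) gave 7 with Fev at 50 FPKM, 39 per cell and 2 after rescaling. Leaving out 1 set gave 4 to 16, 39 to 80, 0 to 1 and 0 to 2 calls, in this order. Without the replicate block that pairs states of 1 set the counts were 117, 88 and 3, and no fit of the slope with that block was possible, since each set has 1 transitional mean. Other alternatives on the per-cell scale were chosen after seeing the data. With at least 300000 fragments the counts were 19 against other cells (10 calls) and 18 against Fev-only cells (47 calls), and rescaling gave 25 against other cells. Leaving out 1 set per cell gave 0 to 4, 263 to 489, 16 to 38 and 11 to 195. The cause of these shifts was not tested.

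The difference in median fragments turned sign to 81997.2 against other cells and 107693.0 against Neurog3-only cells with Fev at 50 FPKM, and to 5395.5 against Neurog3-only cells with Neurog3 at 50 FPKM. Against Fev-only cells it turned to -20542.6 with at least 300000 fragments, -3376.7 with Fev at 50 FPKM and -6118.0 with hormones under 10 FPKM. The difference in genes per cell turned to -25.6 against Neurog3-only cells with Fev at 50 FPKM, and against Fev-only cells to 15.8 with Neurog3 at 50 FPKM and 89.8 with Fev at 50 FPKM. Without 1 set the fragments ranged from -85477.1 to 2352.2, -78736.0 to -12598.2 and -37509.4 to 47450.7 against other, Neurog3-only and Fev-only cells, and the genes from -326.0 to -22.8, 59.8 to 237.2 and -254.8 to 68.4. Among single genes, Usp18 (-0.081), Tmem27 (-0.591) and Pax4 (0.485, and 0.307 per cell) turned against Neurog3-only cells with Fev at 50 FPKM, and Nkx2-2 against other cells ranged from -0.006 to 0.291 without 1 set. Against Fev-only cells Insm1 turned to -0.499 with Fev at 50 FPKM, -0.12 after rescaling and ranged from -0.107 to 0.287 without 1 set, and Sox9 to 0.037 with Neurog3 at 50 FPKM, 0.131 per cell, 0.004 with a pseudocount of 10, 0.066 after rescaling, and ranged from -0.272 to 0.08 without 1 set. Depth was unknown beyond the labels' fragment totals, and sets of 5 to 17 transitional cells limit what can be detected.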

Other observations

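Past the same limits, 2 of the 163 kept cells of E11.5 and E12.5 would have been transitional, both among the 73 of E11.5, and they entered no comparison. They held 241.3 and 246.3 FPKM of Neurog3 and 97.1 and 16.4 FPKM of Fev. Pax4 stood at 70 and 104.4 FPKM and Neurod1 at 374.1 and 113.5 FPKM. Chgb was at 191.6 and 410.3 FPKM, Pax6 at 638.5 and 284.6 FPKM, and Cldn4 at 822.3 and 150.6 FPKM.

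A hormone at 100 FPKM or more kept 10 further cells with Neurog3 and Fev out of the transitional state, with at least 1 in each of the 6 sets. Ins2 passed 100 FPKM in 7 of them, Gcg in 3, Ins1 in 2, Ghrl in 2 and Sst in 1, so some held more than 1 hormone.

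The transcript of the eGFP reporter, on whose protein all cells were sorted, was at 10 FPKM or more in 17 of 56 transitional cells (30.4%, interval 18.8% to 44.1%). It was so in 77 of 141 Neurog3-only cells (54.6%, interval 46% to 63%) and in 1 of 90 Fev-only cells (1.11%, interval 0.0281% to 6.04%).

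Fev and Cryba2 are neighbours on the minus strand of chromosome 1 in GENCODE on mm10. Cryba2, a crystallin-family gene of islet cells, was among the higher genes of the granin and processing list. Fev lies at 74881509 to 74885419 and Cryba2 at 74889934 to 74893143, with 4514 bases between them.

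Peptide hormone genes that the rule did not use were uneven across the transitional cells. Pyy averaged 3.44, 1197.1, 4159.5, 12.6, 2441.5 and 1981.2 FPKM by set, while the median cell held 5.53 FPKM. Cck, cholecystokinin, averaged 11.3, 434.7, 186.9, 205.2, 254.4 and 449.6 FPKM, with a median cell at 140.1 FPKM. Iapp, the amyloid peptide of beta cells, averaged 0.0, 127.4, 57.5, 4.39, 39.6 and 9.01 FPKM and was at 10 FPKM in 10 of 56 cells. Npy was listed at 0 in all 56 cells.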
